A study of Triticum aestivum with 24 samples.

Results

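The probe sets described here were lower in dry than in wet flag leaves at grain filling in both of 2 wheat cultivars, and nearly the same in dry and wet leaves at heading. They were chosen by measured values. A member had a signal above 69 on at least 3 arrays, a dry minus wet difference of -2 or lower at grain filling in TAM 112 and in TAM 111, and a difference smaller than 0.5 in size at heading in both. Each difference was taken between group means of log2(signal + 11.71), the scale of every log2 value below, on which the change of a low signal is understated. A fold below is 2 to the power of the size of such a difference, not a ratio of mean signals. There were 17 members among 37516 tested probe sets (0.0453%), out of 61179 probe sets other than the manufacturer's controls.

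The samples were flag leaves of greenhouse-grown bread wheat (Triticum aestivum), 1 sample per Affymetrix wheat array and 24 arrays in all. There were 8 groups of 3 arrays: dry and wet leaves of the cultivar TAM 112 at grain filling, dry and wet leaves of TAM 111 at grain filling, and the same 4 groups at heading. The labels name 2 water regimes, 90% and 50% field capacity, and do not tie either to an array, so the words dry and wet are theirs. They give no age in days and do not say whether replicates came from separate plants, so a p-value here speaks only of sample-to-sample spread, part of which may be technical.

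The flag leaf is the uppermost leaf of the wheat stem and a main source of sugar for the grain. Heading is when the ear emerges, and during the later grain filling stage the flag leaf exports sugars and nitrogen and then yellows, earlier when water is short. A probe set is a group of short probes that together read 1 transcript. In the ID, an ending of _at marks probes designed to be unique, _a_at probes shared by transcripts of 1 gene, and _x_at probe sets in which some probes match other sequences. The part up to the cluster number (Ta.11022) names a group of related expressed sequences.

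Of the 17 members, 11 ended in _at, 1 in _a_at and 5 in _x_at, which are 64.7%, 5.88% and 29.4% of them. Among all tested probe sets these endings made up 72.6%, 8.06% and 13.8%. The members came from 13 clusters, of which Ta.11022 gave 4, Ta.22984 gave 2 and the other 11 gave 1 each. Probe sets of 1 cluster may read the same transcript and are not separate genes. Only Ta.14456.1.S1_at had a gene in the annotation used here, LOC543143, a protein-coding locus without a descriptive symbol. The other 16 are named by ID, and no role is given to them.

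Whole-series facts can be stated briefly. All 6 genes fixed as green leaf markers, among them PRK (phosphoribulokinase of the Calvin cycle), petC (the Rieske protein of the cytochrome b6f complex) and PsbO (the oxygen-evolving complex), were tested, with mean signals between 14536 and 54272. No grain storage gene matched by name. With the outermost 2% dropped at both ends, the mean signal of an array was 500.1 throughout. On 3 TAM 111 arrays numbered 2 (heading dry, heading wet and grain filling wet), the overall profile lay between the cultivars, and results that change without them are given below.

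The selection narrowed in steps. At grain filling, 521 tested probe sets (1.39%) were lower in dry leaves by 2 or more in TAM 112 and 494 (1.32%) in TAM 111, and 285 of them (0.760%) in both. Of these 285, 231 were also lower by at least 0.5 at heading in both cultivars, and 0 were higher by that much in both. The 17 members are those of the 285 that lay within 0.5 of 0 at heading in both.

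Some members sat close to a limit. TaAffx.107547.1.S1_at was the member nearest the grain filling limit, at -2.02 in TAM 111, while Ta.13993.1.S1_x_at lay just outside it with -1.98 in TAM 112 and -2.47 in TAM 111. TaAffx.57385.1.S1_x_at was nearest the heading limit, at -0.49 in TAM 111. Ta.21345.1.A1_x_at lay just outside that limit, with heading differences of -0.52 in TAM 112 and -0.57 in TAM 111 and grain filling differences of -2.79 and -2.22 in the same cultivars.

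The standard error of a member's dry minus wet difference ran from 0.247 to 0.881 with a median of 0.421. A heading difference within 0.5 of 0 therefore does not show that water had no effect at heading. In 9 of the 17 the heading difference was below 0 in both cultivars.

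**Figure D1:**
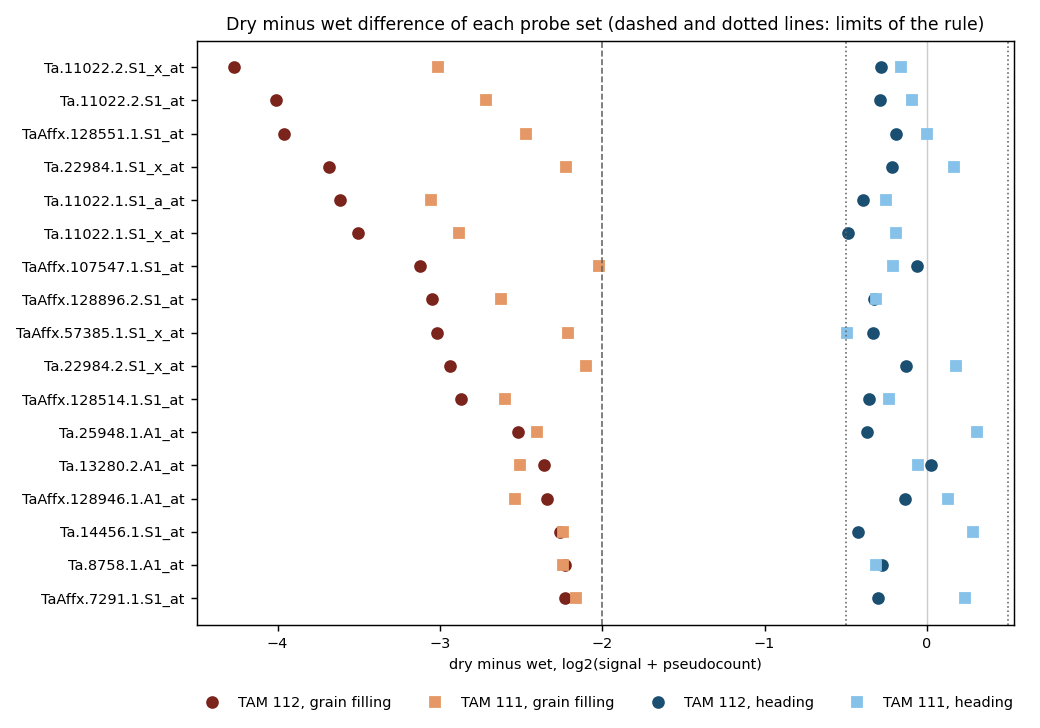
Dry minus wet difference of log2(signal + 11.71) for each of the 17 probe sets, at grain filling and at heading, in TAM 112 and TAM 111, with the limits of the selection drawn as lines. All grain filling points lie between -4.27 and -2.02, and all heading points lie between -0.49 and 0.31, as the selection requires.

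As a description of what the selection kept, the members' median difference at grain filling was -3.02 in TAM 112 and -2.47 in TAM 111, where the medians of all tested probe sets were -0.11 and -0.03. At heading the members' medians were -0.29 in TAM 112 and -0.09 in TAM 111, against -0.01 and 0.03 for all tested probe sets. The difference at grain filling was larger in size in TAM 112 for 14 members and in TAM 111 for 3, which were Ta.13280.2.A1_at, Ta.8758.1.A1_at and TaAffx.128946.1.A1_at. Among the 285 probe sets lower in dry leaves at grain filling in both cultivars, whatever they did at heading, 168 (59.0%) were lower by more in TAM 112.

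Dry and wet arrays were also compared 1 by 1. In TAM 112 at grain filling all 3 dry arrays lay below all 3 wet arrays for 15 members, where 22.1% of all tested probe sets did so. In TAM 111 this held for 15 members and for 18.5% of all tested probe sets. The 2 exceptions in both cultivars were Ta.22984.1.S1_x_at and Ta.22984.2.S1_x_at. These counts use the contrast that chose the members, so nothing is read from them.

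The members reached their low signal in dry grain filling leaves from different levels in wet leaves. Because a dry minus wet difference hides the level, each water group at grain filling was set against the same water group at heading in the same cultivar. These stage differences share the grain filling arrays with the selection and are given without a test. With limits of 1 and -1, in TAM 112 6 members stayed within 1 of their heading level in wet leaves and were lower by 1 or more in dry ones, 6 were lower by 1 or more in both, 3 were higher by 1 or more in wet leaves and within 1 in dry ones, and 2 were higher in wet and lower in dry leaves. The counts in TAM 111 were 9, 3, 5 and 0 in the same order of patterns. The same pattern held in both cultivars for 12 members: 6 within 1 in wet leaves, 3 lower in both and 3 higher in wet leaves only.

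The members are described below in the order of their wet-leaf difference. It was below 0 in both cultivars for 9 members (as little as -0.004 for Ta.25948.1.A1_at in TAM 111), and 1 or more in both cultivars for 5. For the other 3 it lay between -0.06 and 0.72.

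**Figure D2:**
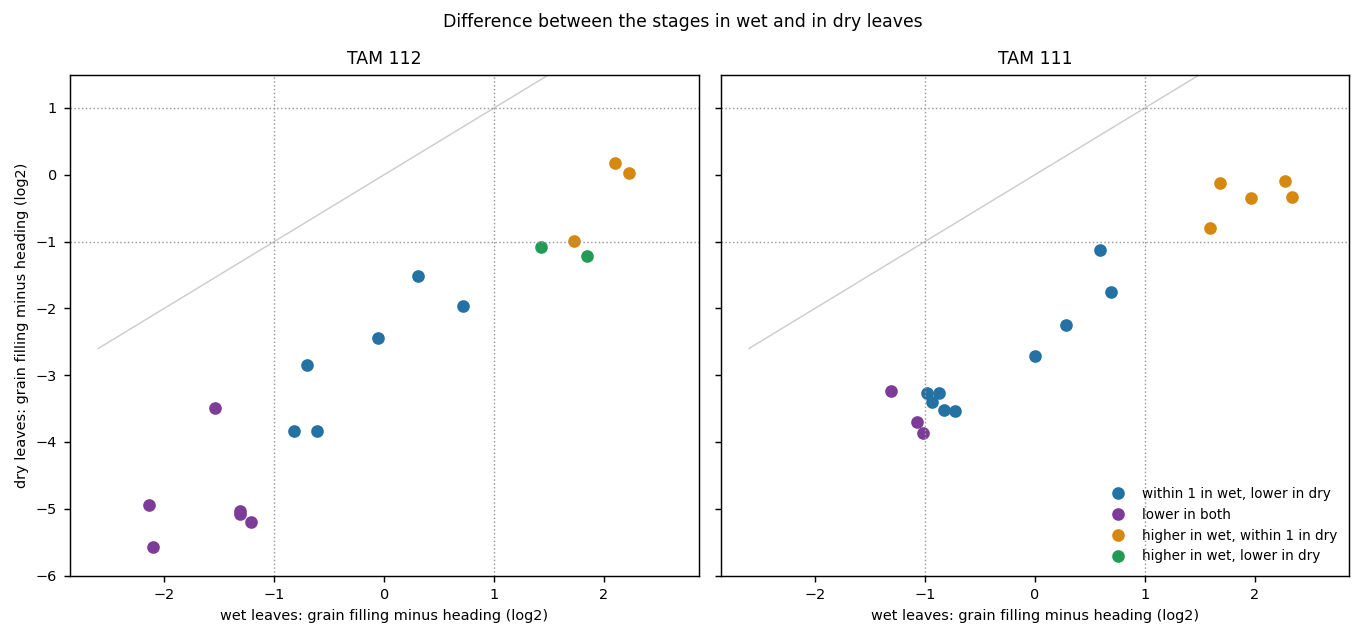
Grain filling minus heading difference of log2(signal + 11.71) in dry leaves against that in wet leaves for each of the 17 probe sets, in TAM 112 and in TAM 111, with dotted lines at 1 and -1, a grey line of equal differences and a colour for each pattern. Wet-leaf values lie between -2.14 and 2.23 in TAM 112 and between -1.31 and 2.34 in TAM 111, while dry-leaf values reach -5.57 in TAM 112 and -3.87 in TAM 111.

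The 4 probe sets of cluster Ta.11022 belonged to the 9, with wet-leaf differences between -1.31 and -0.61. Ta.11022.2.S1_x_at had signals of 168, 178 and 281 in dry TAM 112 leaves at grain filling, against 3178, 4969 and 4479 in wet ones. In TAM 111 at grain filling it had 450, 195 and 553 in dry leaves, against 3390, 3041 and 2722 in wet ones. No dry array came near a wet one in either cultivar, and dry leaves were 19.3-fold lower in TAM 112 and 8.08-fold lower in TAM 111.

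No such gap was seen at heading. Ta.11022.2.S1_x_at had 5889, 10902 and 7558 in dry TAM 112 leaves at heading and 10480, 8768 and 9566 in wet ones. In TAM 111 at heading it had 5318, 6547 and 4823 in dry leaves and 7269, 6203 and 5161 in wet ones. The dry and wet heading arrays overlapped in both cultivars, and all of them lay above every grain filling array of their cultivar.

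The other 3 probe sets of the cluster had a like order of groups. Ta.11022.2.S1_at was 16.1-fold lower in dry leaves at grain filling in TAM 112 and 6.57-fold lower in TAM 111. Ta.11022.1.S1_a_at was 12.2-fold lower in TAM 112 and 8.29-fold lower in TAM 111. Ta.11022.1.S1_x_at was 11.3-fold lower in TAM 112 and 7.36-fold lower in TAM 111. At heading all 4 were below 0 in both cultivars, between -0.49 and -0.09, and leaving out replicate 2 of dry TAM 112 at heading moved all 4 past the heading limit.

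TaAffx.128551.1.S1_at and Ta.8758.1.A1_at were likewise highest at heading, lower in wet and lowest in dry leaves at grain filling. TaAffx.128551.1.S1_at had 162, 103 and 356 in dry TAM 112 leaves at grain filling, against 1973, 3856 and 3571 in wet ones. TAM 111 at grain filling gave 473, 311 and 981 in dry leaves, against 3623, 2575 and 2791 in wet ones. Its heading signals, dry and wet together, lay between 5197 and 8775 in TAM 112 and between 4478 and 7780 in TAM 111, above every grain filling array.

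Ta.8758.1.A1_at had signals of 25.5, 92.8 and 74.4 in dry TAM 112 leaves at grain filling, against 238, 422 and 308 in wet ones. For TAM 111 at grain filling the signals were 45.1, 28.6 and 50.2 in dry leaves, against 287, 191 and 238 in wet ones. Its dry arrays all lay below its wet ones, and its wet grain filling arrays all lay below its heading arrays, whose range was 547 to 1004 in TAM 112 and 378 to 780 in TAM 111.

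Ta.25948.1.A1_at had 8.85, 12.98 and 16.8 in dry TAM 112 leaves at grain filling, against 60.4, 172 and 193 in wet ones. At grain filling in TAM 111 the signals were 22.0, 6.16 and 63.1 in dry leaves, against 283, 107 and 179 in wet ones. All 6 dry arrays were below the signal of 69 that the filter used. Its dry minus wet differences were -2.52 in TAM 112 and -2.40 in TAM 111. In wet leaves grain filling differed from heading by -0.70 in TAM 112 and by -0.004 in TAM 111.

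The 2 probe sets of cluster Ta.22984 varied widely between replicates at grain filling. Ta.22984.1.S1_x_at had 103, 367 and 2560 in dry TAM 112 leaves at grain filling, against 1082, 11876 and 18278 in wet ones. In TAM 111 at grain filling it had 2683, 1431 and 5994 in dry leaves, against 26191, 5432 and 16605 in wet ones. The highest dry array lay above the lowest wet array in both cultivars.

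At heading all 12 arrays of Ta.22984.1.S1_x_at lay between 17518 and 28205. Its difference at grain filling was -3.68 in TAM 112 and -2.22 in TAM 111. Without replicate 1 of wet TAM 112 the TAM 112 value was -4.94, and without replicate 1 of wet TAM 111 the TAM 111 value was -1.73, outside the selection. Ta.22984.2.S1_x_at moved with it over the arrays: it had 291, 622 and 3298 in dry TAM 112 leaves at grain filling, against 1168, 13237 and 18196 in wet ones. Both endings are _x_at, so other transcripts may add to these signals.

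Of the 3 members with a wet-leaf difference between -0.06 and 0.72, Ta.13280.2.A1_at had dry arrays that lay close together. It had 496, 375 and 366 in dry TAM 112 leaves at grain filling, against 1979, 1670 and 2975 in wet ones. TAM 111 at grain filling gave 662, 531 and 577 in dry leaves, against 4022, 2977 and 3253 in wet ones. At heading its 12 arrays lay between 1536 and 2915, above every dry grain filling array. Dry leaves were 5.13-fold lower at grain filling in TAM 112 and 5.68-fold lower in TAM 111.

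Ta.14456.1.S1_at, the probe set of LOC543143, had 86.9, 33.1 and 56.5 in dry TAM 112 leaves at grain filling, against 338, 283 and 310 in wet ones. For TAM 111 at grain filling the signals were 101, 18.6 and 23.3 in dry leaves, against 233, 118 and 384 in wet ones. Dry arrays lay below wet arrays in both cultivars, by little between the nearest arrays in TAM 111. At heading it had 103, 167 and 338 in dry TAM 112 leaves and 252, 151 and 393 in wet ones, and in TAM 111 it had 192, 233 and 243 in dry leaves and 166, 137 and 254 in wet ones. Its heading difference was -0.43 in TAM 112 and 0.28 in TAM 111, with dry and wet arrays overlapping.

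TaAffx.57385.1.S1_x_at had 55.4, 10.1 and 9.21 in dry TAM 112 leaves at grain filling, against 351, 152 and 263 in wet ones. At grain filling in TAM 111 the signals were 65.0, 28.3 and 57.4 in dry leaves, against 182, 416 and 242 in wet ones. All 6 dry arrays lay below the filter level of 69 and below all wet arrays.

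The 5 members that were higher at grain filling than at heading in wet leaves of both cultivars were TaAffx.128896.2.S1_at, TaAffx.128946.1.A1_at, TaAffx.7291.1.S1_at, TaAffx.107547.1.S1_at and TaAffx.128514.1.S1_at. TaAffx.128896.2.S1_at had 517, 574 and 562 in dry TAM 112 leaves at grain filling, against 7877, 3201 and 3941 in wet ones. In TAM 111 at grain filling it had 980, 792 and 788 in dry leaves, against 4980, 5989 and 4962 in wet ones. Every wet grain filling array lay above every heading array, whose signals lay between 923 and 2815 in TAM 112 and between 631 and 2371 in TAM 111.

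TaAffx.128946.1.A1_at had 331, 788 and 347 in dry TAM 112 leaves at grain filling, against 5480, 1231 and 1859 in wet ones. TAM 111 at grain filling gave 382, 480 and 517 in dry leaves, against 2168, 2953 and 3100 in wet ones. Wet leaves were higher at grain filling than at heading by 2.23 in TAM 112 and 2.34 in TAM 111, while dry leaves differed between the stages by 0.02 and -0.33 in the same cultivars.

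TaAffx.7291.1.S1_at had 181, 234 and 158 in dry TAM 112 leaves at grain filling, against 2071, 654 and 584 in wet ones. For TAM 111 at grain filling the signals were 89.0, 140 and 120 in dry leaves, against 450, 621 and 602 in wet ones. Without replicate 1 of wet TAM 112 at grain filling, the TAM 112 difference of TaAffx.7291.1.S1_at was -1.65 instead of -2.23, and that of TaAffx.128946.1.A1_at was -1.73 instead of -2.34. Both then lay outside the selection.

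TaAffx.107547.1.S1_at had 92.4, 101 and 192 in dry TAM 112 leaves at grain filling, against 1981, 679 and 1127 in wet ones. At grain filling in TAM 111 the signals were 224, 250 and 307 in dry leaves, against 951, 1461 and 909 in wet ones. The dry arrays all lay below the wet ones, and dry leaves were 8.70-fold lower in TAM 112 and 4.06-fold lower in TAM 111.

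TaAffx.128514.1.S1_at had 4.12, 16.8 and 5.38 in dry TAM 112 leaves at grain filling, against 214, 94.9 and 113 in wet ones. In TAM 111 at grain filling it had 10.04, 23.1 and 40.6 in dry leaves, against 157, 225 and 207 in wet ones. It was the 1 member that passed the filter on low signals only through wet grain filling arrays, since all 12 heading arrays and all 6 dry grain filling arrays were below 69. A probe set that passes in this way had to differ between the groups. Of the other members, 12 were above 69 on all 24 arrays.

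**Figure D3:**
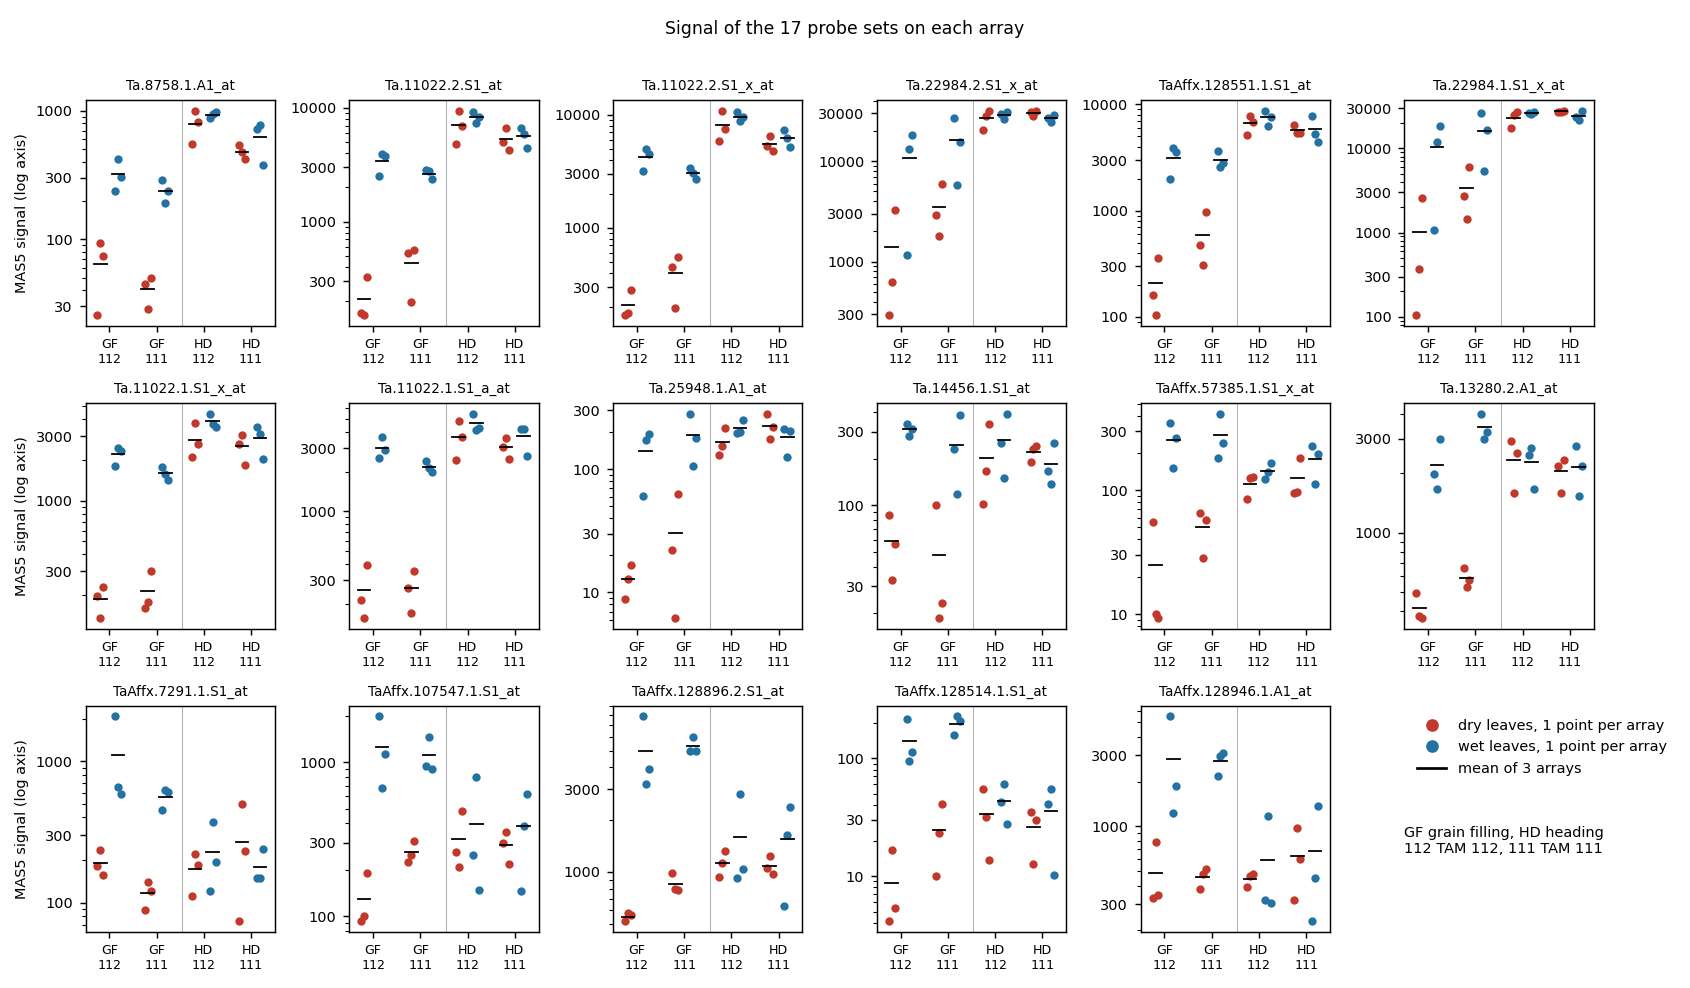
Signal of each of the 17 probe sets on every array, on a log axis, with dry and wet leaves as separate colours and bars at the mean of 3 arrays, for TAM 112 and TAM 111 at grain filling (GF) and heading (HD). Dry and wet points overlap at grain filling for the 2 Ta.22984 probe sets and lie apart for the other 15 in both cultivars.

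Each water group at grain filling was then compared with all 6 heading arrays of its cultivar, dry and wet together, by counting members whose arrays did not overlap. All 3 dry grain filling arrays lay below all 6 heading arrays for 13 members in TAM 112 (17.3% of all tested probe sets) and for 12 in TAM 111 (11% of all tested). The members without this gap in TAM 112 were TaAffx.107547.1.S1_at, TaAffx.128514.1.S1_at, TaAffx.128946.1.A1_at and TaAffx.7291.1.S1_at, joined in TAM 111 by TaAffx.128896.2.S1_at. They are the 5 that were higher in wet grain filling leaves. Since these counts share the dry grain filling arrays with the selection, they are a description.

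All 3 wet grain filling arrays lay below all 6 heading arrays for 5 members in TAM 112 (6.01% of all tested) and for 6 in TAM 111 (6.35% of all tested). Both Ta.11022.2 probe sets, Ta.8758.1.A1_at and TaAffx.128551.1.S1_at were among them in both cultivars. The wet arrays lay above all heading arrays for 4 members in TAM 112 (5.82% of all tested) and for 5 in TAM 111 (5.53% of all tested). TaAffx.128514.1.S1_at, TaAffx.128896.2.S1_at and TaAffx.128946.1.A1_at were among them in both cultivars. For TaAffx.128514.1.S1_at, which passed the filter only through wet grain filling arrays, this was built into its choice. The counts of both directions share the wet grain filling arrays with the selection, so they are a description and nothing is read from them.

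The 3 wet TAM 112 arrays at grain filling did not agree on the level of the members. Replicate 1 was the lowest of the 3 for all 9 members whose wet-leaf stage difference was below 0 in both cultivars, and the highest for all 5 that were higher by 1 or more. On other grain filling arrays, replicate 3 of dry TAM 112 was the highest of its group for 8 of the 9. Replicate 3 of dry and replicate 1 of wet TAM 111 were the highest for all 9. Heading arrays differed too: replicate 1 of dry TAM 112 was the lowest for all 9, and replicate 2 of wet TAM 112 the highest for all 5. Several of the 9 share a cluster and are not separate genes. These counts were not set beside those of all tested probe sets, and the overall profile of replicate 1 of wet TAM 112 also stood apart from its group. No trait of the members is read from them. The split of the wet TAM 112 arrays can be seen in the signals of the Ta.22984 pair and of TaAffx.128946.1.A1_at above. The median SD of the members on the log2 scale was 0.57 in both dry and wet TAM 112 at grain filling, where all tested probe sets had 0.28 and 0.27. In TAM 111 it was 0.51 in dry and 0.26 in wet leaves, where all tested probe sets had 0.22 and 0.24.

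Control probe sets for RNA quality were compared between dry and wet leaves at both stages. The GAPDH controls, 1 probe set at each end of the transcript, had a log2 ratio of 3' over 5' signal that averaged -1.06 ± 0.489 in dry and -2.73 ± 1.25 in wet TAM 112 leaves at grain filling (SD, n = 3 each). In TAM 111 it averaged -1.70 ± 0.735 in dry and -2.43 ± 0.478 in wet leaves (SD, n = 3 each). On the wet TAM 112 arrays it was -1.52, -2.66 and -4.01 in replicates 1, 2 and 3. The same ratio for actin averaged 1.11 ± 1.96 in dry and 1.20 ± 0.506 in wet TAM 112 leaves, and 2.20 ± 2.18 in dry and 1.504 ± 1.26 in wet TAM 111 leaves (SD, n = 3 each). Replicates 1, 2 and 3 had actin ratios of 3.362, 0.184 and -0.221 in dry TAM 112 leaves, against 0.615, 1.452 and 1.525 in wet ones. In TAM 111 these were 3.893, 2.953 and -0.259 in dry leaves, against 0.975, 0.597 and 2.941 in wet ones. Whether the members' level follows this ratio from array to array was not tested. In TAM 112 at grain filling the dry GAPDH ratios (-1.503, -0.537 and -1.151) all lay above the wet ones, by little between the nearest arrays. In TAM 111 at grain filling the GAPDH ratios of dry and wet arrays overlapped (dry -0.86, -2.02 and -2.22, wet -2.25, -2.06 and -2.97). At heading, where the members were chosen to differ little, the GAPDH ratio averaged -1.14 ± 0.356 in dry and -0.94 ± 0.411 in wet TAM 112 leaves, and -1.34 ± 0.7498 in dry and -1.44 ± 0.748 in wet TAM 111 leaves (SD, n = 3 each). The heading actin ratio averaged 0.79 ± 1.34 in dry and 0.61 ± 0.940 in wet TAM 112 leaves, and 1.76 ± 0.629 in dry and 0.12 ± 0.264 in wet TAM 111 leaves, where dry and wet arrays did not overlap (SD, n = 3 each). The part of RNA quality in the members' differences was not tested. Fewer cells of a type and less RNA per cell cannot be told apart in whole leaves.

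The stages were also compared as grain filling minus heading averaged over dry and wet leaves. This average holds the grain filling difference that chose the members: by arithmetic, dry leaves lower by 2 at grain filling alone bring it down by 1. Wet leaves higher by 2 at grain filling alone lift it by 1. In TAM 112, limma called 10 members lower at grain filling (Benjamini-Hochberg adjusted p below 0.05), where 16.3% of all tested probe sets were, and 2 higher, where 13.1% were. In TAM 111, 10 were called lower, where 8.6% of all tested were, and 2 higher, where 8.06% were. Nothing is read from the counts of lower or higher members, or from the members' median of -1.77 in TAM 112 and -1.36 in TAM 111. The selection fixes much of the lower counts and of the medians, and its difference enters the higher counts. The 10 were the same in both cultivars: the 4 Ta.11022 and 2 Ta.22984 probe sets, Ta.8758.1.A1_at, TaAffx.128551.1.S1_at, Ta.25948.1.A1_at and Ta.13280.2.A1_at.

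The average is therefore given beside its wet and dry parts, with no p for a lower value. Ta.11022.2.S1_x_at averaged -3.20 ± 0.198 (SE) in TAM 112, with -5.19 in dry and -1.21 in wet leaves. In TAM 111 its average was -2.44 ± 0.198 (SE), with -3.87 in dry and -1.01 in wet leaves. The wet part was negative in both cultivars but much smaller in size than the dry part. Ta.8758.1.A1_at averaged -2.51 ± 0.230 (SE) in TAM 112, with -3.49 in dry and -1.54 in wet leaves, and -2.27 ± 0.230 (SE) in TAM 111, with -3.23 in dry and -1.31 in wet leaves. TaAffx.128551.1.S1_at had -5.08 in dry and -1.31 in wet TAM 112 leaves, and -3.41 in dry and -0.94 in wet TAM 111 leaves.

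The Ta.22984 pair had the largest negative averages in TAM 112 and the widest errors. Ta.22984.1.S1_x_at averaged -3.83 ± 0.623 (SE) in TAM 112, with -5.57 in dry and -2.10 in wet leaves, and -2.07 ± 0.623 (SE) in TAM 111, with -3.27 in dry and -0.88 in wet leaves. Without replicate 1 of wet TAM 112 at grain filling, the wet part in TAM 112 was -0.85.

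Ta.13280.2.A1_at averaged -1.25 ± 0.175 (SE) in TAM 112, with -2.44 in dry and -0.06 in wet leaves, and -0.53 ± 0.175 (SE) in TAM 111, with -1.76 in dry and 0.69 in wet leaves. Its negative averages thus came from dry leaves, the difference that chose it. LOC543143 (Ta.14456.1.S1_at) averaged -0.61 ± 0.338 (SE) in TAM 112, with -1.52 in dry and 0.31 in wet leaves, and -0.98 ± 0.338 (SE) in TAM 111, with -2.24 in dry and 0.28 in wet leaves.

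The members higher at grain filling were not the same in the cultivars. TaAffx.7291.1.S1_at rose by 1.14 ± 0.355 (SE, limma, adjusted p = 0.0186) and TaAffx.128946.1.A1_at by 1.12 ± 0.407 (adjusted p = 0.0411) in TAM 112. Their TAM 111 values were 0.40 (adjusted p = 0.510) and 1.01 (adjusted p = 0.0981). TaAffx.128896.2.S1_at rose by 0.81 (adjusted p = 0.0445) in TAM 111, with a TAM 112 value of 0.36 (adjusted p = 0.356). The second member called higher in TAM 111 was TaAffx.128514.1.S1_at, at 1.09, with 0.17 in TAM 112. As it passed the filter only through wet grain filling arrays, a higher level at grain filling was built into its choice, and its call is not counted as a test. None of these 4 passed the test of a stage difference that differs between cultivars, given below.

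The other 3 rises hold the selected difference as well, so their calls do not stand apart from the selection. In TAM 112, TaAffx.7291.1.S1_at differed between the stages by 2.10 in wet and 0.17 in dry leaves, and TaAffx.128946.1.A1_at by 2.23 and 0.02. In TAM 111, TaAffx.128896.2.S1_at differed by 1.97 in wet and -0.34 in dry leaves. Each of the 3 calls also rested on single arrays. The TaAffx.7291.1.S1_at call was lost without replicate 1 of wet TAM 112 at grain filling (adjusted p = 0.0700), of dry TAM 112 at heading (0.0512) or of wet TAM 112 at heading (0.0592). The TaAffx.128946.1.A1_at call was lost without any of 7 TAM 112 arrays, namely dry replicate 2 and wet replicate 1 at grain filling and, at heading, all dry replicates and wet replicates 1 and 3 (adjusted p between 0.0608 and 0.140). For TaAffx.128896.2.S1_at it was lost without any of 14 arrays. These were all TAM 111 arrays but wet replicates 2 and 3 at heading, with dry replicate 2 and wet replicate 3 of TAM 112 at grain filling and dry replicates 2 and 3 of TAM 112 at heading (adjusted p between 0.05002 and 0.138).

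**Figure D4:**
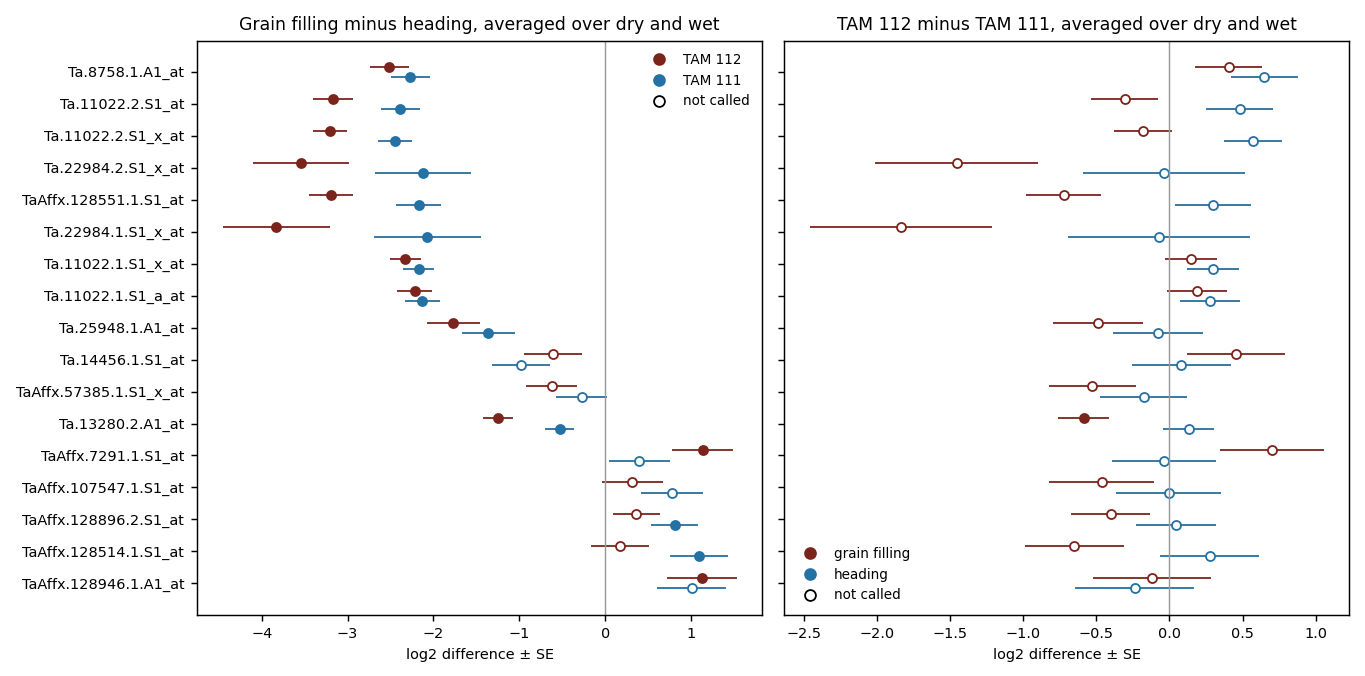
Fitted log2 differences of the 17 probe sets with their standard errors: grain filling minus heading averaged over water in TAM 112 and TAM 111, and TAM 112 minus TAM 111 averaged over water at grain filling and at heading. Filled points mark differences that limma called, and the stage values hold the selection's own difference. Stage values lie between -3.83 and 1.14 in TAM 112 and between -2.44 and 1.09 in TAM 111, and cultivar values lie closer to 0, between -1.84 and 0.70 at grain filling and between -0.24 and 0.65 at heading.

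The cultivars were compared at each stage, averaged over water. At grain filling 1 member was lower in TAM 112 than in TAM 111 (6.67% of all tested probe sets were) and 0 were higher (4.21% of all tested were). That member was Ta.13280.2.A1_at, lower by 0.59 ± 0.175 (log2 difference -0.59, SE, limma, adjusted p = 0.0328). Its call was lost without any of 8 grain filling arrays, namely dry replicates 2 and 3 and wet replicates 1 and 2 of TAM 112 and replicates 1 and 3 of both water groups of TAM 111 (adjusted p between 0.0505 and 0.0921).

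At grain filling 3 further members had an unadjusted p below 0.05 and did not pass after adjustment. They were Ta.22984.1.S1_x_at at -1.84 ± 0.623 (SE, limma, adjusted p = 0.0619), TaAffx.128551.1.S1_at at -0.72 ± 0.258 (adjusted p = 0.0763) and Ta.22984.2.S1_x_at at -1.46 ± 0.556 (adjusted p = 0.10). Standard errors of this size leave room for differences that this design did not detect.

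At heading 0 members were lower in TAM 112 (2.88% of all tested were) and 0 were higher (2.01% of all tested were) by limma, with 3 at an unadjusted p below 0.05. Those 3 were Ta.8758.1.A1_at at 0.65 ± 0.230 (SE, adjusted p = 0.136), Ta.11022.2.S1_x_at at 0.57 ± 0.198 (adjusted p = 0.122) and Ta.11022.2.S1_at at 0.48 ± 0.230 (adjusted p = 0.349).

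Whether the stage difference itself differed between cultivars was tested as TAM 112 minus TAM 111. The test called 0 members and 1 of 37516 probe sets (0.00267%) by limma, with 4 members at an unadjusted p below 0.05. Those were Ta.13280.2.A1_at at -0.72 ± 0.247 (SE, adjusted p = 0.442), TaAffx.128551.1.S1_at at -1.02 ± 0.365 (adjusted p = 0.449), Ta.11022.2.S1_x_at at -0.76 ± 0.280 (adjusted p = 0.458) and Ta.11022.2.S1_at at -0.79 ± 0.325 (adjusted p = 0.507).

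The clusters of the members hold 26 further probe sets on the array that the selection did not take, and 20 of them were tested. All 20 were below 0 in dry against wet leaves at grain filling in both cultivars, as were 40.6% of all tested probe sets. By 1 or more in both cultivars, 10 of the 20 were lower, against 3.33% of all tested. Their median difference was -1.30 in TAM 112 and -0.94 in TAM 111. These are the same arrays and related sequences, so the values describe the clusters and carry no test.

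In cluster Ta.11022, Ta.11022.3.S1_x_at was lower in dry leaves at grain filling by less than the members, with -1.28 in TAM 112 and -1.20 in TAM 111. In cluster Ta.13280, Ta.13280.3.S1_at had -2.19 in TAM 112 and -1.71 in TAM 111, whereas Ta.13280.1.S1_a_at had -0.43 and -0.74 in the same cultivars. In cluster Ta.22984, Ta.22984.3.S1_at had -0.52 in TAM 112 and -0.06 in TAM 111. Probe sets of a cluster thus differed in size. The members stood at the low end of each of these 3 clusters, which a selection for low values favours, so nothing is read from it. In clusters TaAffx.128896 and TaAffx.128946, described next, some other probe sets lay below the member in both cultivars.

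Most of the other tested probe sets were of cluster TaAffx.128896, to which 1 member belongs. TaAffx.128896.17.S1_s_at, annotated to LOC100049018 (synonym rbcl), had -3.32 in TAM 112 and -3.19 in TAM 111 at grain filling. At heading it was also lower in dry leaves, at -1.78 in TAM 112 and -1.69 in TAM 111, which kept it out of the selection. Its mean signal was 5084, whereas the probe set that stood for LOC100049018 among the green leaf markers had a mean signal of 54272. The values of TaAffx.128896.17.S1_s_at are thus not read as a fall of the gene. TaAffx.128896.8.A1_at was lower at both stages too, with -2.84 in TAM 112 and -3.65 in TAM 111 at grain filling and -2.67 and -2.05 in the same cultivars at heading. No other tested probe set of this cluster was lower by 0.5 or more at heading in either cultivar. TaAffx.128896.23.S1_at had -1.90 in TAM 112 and -1.61 in TAM 111 at grain filling, and 0.25 and 0.23 at heading. TaAffx.128896.1.S1_s_at had -0.77 and -0.49 at grain filling, and -0.14 and 0.16 at heading, in the same order.

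In cluster TaAffx.128946 the other tested probe sets were lower in dry leaves at both stages in both cultivars. TaAffx.128946.3.S1_at had -2.62 in TAM 112 and -2.50 in TAM 111 at grain filling and -1.75 and -1.25 in the same cultivars at heading. TaAffx.128946.4.S1_at had -2.80 in TAM 112 and -2.69 in TAM 111 at grain filling and -1.48 and -1.02 in the same cultivars at heading. The heading values of the member, TaAffx.128946.1.A1_at, were -0.13 in TAM 112 and 0.13 in TAM 111.

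**Figure D5:**
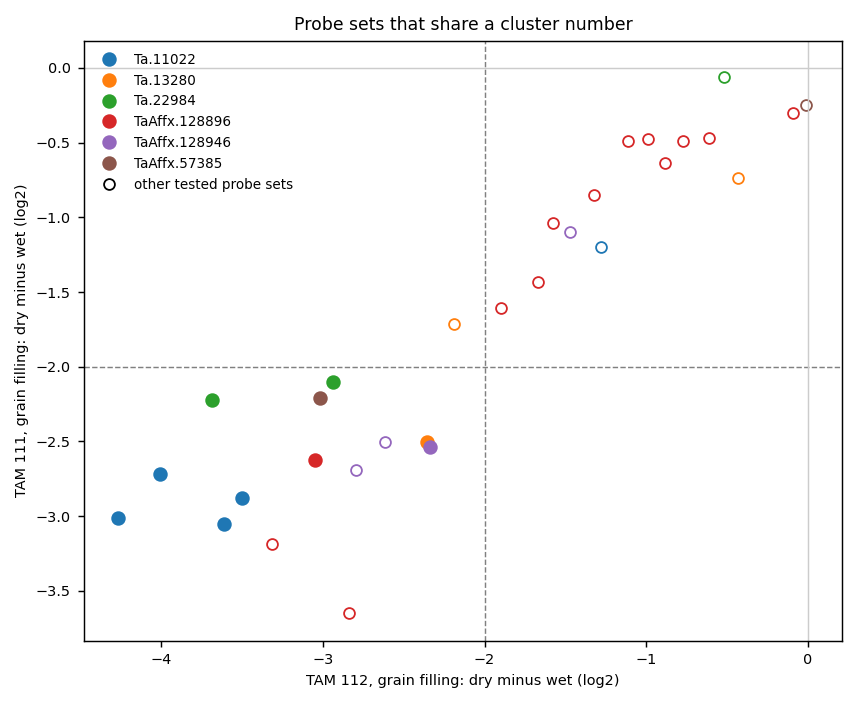
Dry minus wet difference of log2(signal + 11.71) at grain filling in TAM 111 (vertical) against that in TAM 112 (horizontal), for the members (filled points) and the other tested probe sets (open points) of each cluster that has both, with dashed lines at -2. The 20 other probe sets all lie below 0, with medians of -1.30 in TAM 112 and -0.94 in TAM 111, and 4 of them lie at -2 or lower in both cultivars.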

How the data were processed

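Flag leaf RNA was labelled with biotin and measured on 24 one-colour arrays. The deposited values are intensity values, 1 linear MAS5 signal per probe set and array, per the submitters' processing notes (the MAS5 version is not given in the sources used here). Of 61290 probe sets, 111 controls were left out. The values analysed were log2(signal + 11.71), where 11.71 is the 20th percentile of all signals, with no further normalization. A model with 8 group means was fitted to all 37516 tested probe sets with limma 3.58.1 in R 4.3.3 (eBayes with a trend), and p-values were Benjamini-Hochberg adjusted over all of them. The fit was tested on simulated data. Calls of members lower by stage, planned as a test, are given as counts only, since the averages hold the selected difference. Calls of members higher by stage hold it too, and their p-values do not stand apart from the selection.

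The members and the lists were chosen with earlier results of these data known. The naming rule took annotated members, the 10 with the highest wet grain filling signal, the 8 with the largest fall, called members of the cultivar tests and those nearest a limit, and the others were named after their values were seen. In the annotation 1273 probe sets had 1 gene symbol, 0 several and 59906 none. Of 10 pathway lists 4 matched any gene (photosynthesis 6, LEA and dehydrins 2, defence 1, heat shock 1), and with 1 annotated member they could say nothing of the other 16. All columns were mapped (0 unmapped). Alternatives changed the pseudocount, normalization, filter, variance model, arrays and replicate block. Sequences were not used here. The number of arrays limits the precision.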

Additional observations from a re-analysis of the deposited data

How the results depend on the processing

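The selection gave 17 probe sets and changed with the pseudocount: there were 25 with a pseudocount of 1, 15 of them shared with the 17, and 10 when it was 4 times as large (46.8), all 10 shared. Quantile normalization lost 0 members, and leaving out 1 array gave 12 to 21. Without dry TAM 111 replicate 2 at grain filling 6 members left the selection, and without the 3 intermediate or the 4 TAM 111 arrays numbered 2 it was TaAffx.107547.1.S1_at and TaAffx.57385.1.S1_x_at.

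Members called lower by stage, which the selection largely fixes, numbered 10 to 11 in TAM 112 and 8 to 11 in TAM 111 with 1 array left out. The TAM 111 calls of both Ta.22984 probe sets were lost without the 3 intermediate arrays or the 4 numbered 2. That of Ta.22984.1.S1_x_at was also lost without any 1 of 3 TAM 111 grain filling arrays, namely dry replicates 1 and 2 and wet replicate 2. That of Ta.13280.2.A1_at was lost without the 4 numbered 2, and without any 1 of 8 TAM 111 arrays. Members higher, 2 in each cultivar, numbered 0 to 2 with 1 array left out. In TAM 111 they were 1 with a pseudocount of 1, with no filter, with the filter at the 75th percentile or without the variance trend, and 0 without the 3 intermediate arrays or the 4 numbered 2. In TAM 112 they were 1 with no filter, without the 4 numbered 2 or without the trend. Members lower in TAM 112 at grain filling, 1 as reported, were 2 with the filter at the 75th percentile or without the 3 intermediate arrays, 3 without the 4 numbered 2 or with array weights, 0 without the trend and 0 to 3 with 1 array left out. Members higher in TAM 112 at heading, 0 as reported, were 1 without the 4 numbered 2 or with only the arrays compared, and 0 to 1 with 1 array left out. The stage by cultivar count was 0 throughout. The causes were not tested.

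Same-numbered arrays were checked for pairing: of 84 pairs 7 had a correlation over 0.1 (range -0.095 to 0.215). Most pairs thus gave no sign of pairing, and none was used in the main fit. The 3 intermediate TAM 111 arrays all have the number 2, and whether same-numbered arrays were handled together was not tested. With the replicate block 2 members were lower in TAM 112 at grain filling, and members called lower by stage numbered 10 in TAM 112 and 11 in TAM 111.

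The level patterns moved too. Members higher in wet and lower in dry TAM 112 leaves by 1 or more were 1, against 2, with the larger pseudocount or the filter at the 75th percentile, and under that filter 3 of 13 tested members stayed within 1 in wet and were lower in dry TAM 112 leaves, against 6. In TAM 111 1 member fell outside all patterns with the larger pseudocount or without the 4 arrays numbered 2. With 1 array left out, TAM 112 counts were 5 to 8 for within 1 in wet leaves, 2 to 4 for higher in wet only, 1 to 3 for higher in wet and lower in dry and 4 to 6 for lower in both, and TAM 111 counts of these 4 patterns were 6 to 11, 4 to 5, 0 to 1 and 1 to 6, with 0 to 1 outside all patterns.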
